A study of Homo sapiens with 9 samples.

Results

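Polycomb repressive complex 1 (PRC1) subunits were followed at the transcript level in an established human T-cell leukaemia line, Jurkat, in which EZH2 had been targeted. The 9 subunit genes, RNF2, BMI1, PCGF6, CBX2, CBX6, CBX7, CBX8, PHC1 and PHC2, were taken by symbol from a list, out of 26190 genes with values, and all 9 passed the filter on low values that left 11737 genes for testing. The groups were EZH2-KO1 and EZH2-KO2 (KO1 and KO2), a pair of lines edited with CRISPR/Cas9, and EZH2-WT (WT), with 3 libraries each, called biological triplicates by the submitters. All cells grew in complete RPMI medium and none of the labels names a drug or other treatment. Whether the edited lines are single clones is not stated in the labels, and each is 1 line, so p-values measure the spread between its cultures and not between independent edits.

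PRC1 is built around a RING-type ubiquitin ligase, RING1 or RNF2 (RING1B), which places a ubiquitin on a lysine of histone H2A, and around a PCGF protein that pairs with it. Canonical PRC1 adds a CBX protein, whose chromodomain reads the H3K27me3 mark laid down by EZH2 within PRC2, and a PHC protein, whose SAM domain polymerises and compacts chromatin. Variant PRC1 carries RYBP or YAF2 in place of the CBX protein and is recruited without that mark. In blood cells BMI1 is known as a factor that sustains stem and leukaemia cells, in part by silencing the INK4 locus.

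Values are FPKM, a fragment count scaled to transcript length and to the library's total, so levels of different genes can be set side by side. Log2 fold changes, given ± SE, are differences in mean log2(FPKM + 1), which understate changes of weakly expressed genes; they come from limma fitted to all 11737 genes, with p-values adjusted over all of them and a threshold of 0.05. Ratios are of mean FPKM. Between 11028 and 11415 genes reached 1 FPKM in a library, and depth in reads is unknown. All 8 T-lineage markers examined, among them CD3E, LCK and TAL1, averaged at least 1 FPKM in every group, with summed levels of 1207 to 1344 FPKM in KO1, 1503 to 1538 in KO2 and 1458 to 1547 in WT. The summed level of 4 markers each of B, myeloid, erythroid, epithelial and fibroblast cells was at most 1.77 FPKM in any library. The fibroblast list summed to 1.28 to 1.77 FPKM in KO1 and 1.20 to 1.56 in KO2, against 0.449 to 0.510 in WT, with DCN and LUM listed at 0 in every library. Of its other members, COL1A1 averaged at least 1 FPKM in KO1 and KO2 but not in WT, and COL1A2 was at 0 throughout in WT only. The myeloid list summed to 0.217 to 0.252 FPKM in KO1 and 0.232 to 0.376 in KO2, against at most 0.0599 in WT. The erythroid and epithelial sums of both edited lines overlapped those of WT, as did the B-cell sum of KO1 but not of KO2. The part of these differences in the results below was not tested. In cultured cells measured in bulk, a lower level in every cell and fewer expressing cells cannot be told apart. Over the 9 subunits and 3 groups, the SD between libraries of a group was 1.64% to 20.9% of the mean, with a median of 7.33%. WT replicate 1 gave the lowest value of all libraries for 5 of the 9 subunits (CBX2, CBX6, CBX8, PHC1 and PHC2), and results are therefore also given without it where it mattered.

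EZH2 itself was transcribed in all libraries. It stood at 108, 107 and 103 FPKM in KO1 and 87.9, 89.9 and 90.7 FPKM in KO2, against 74.4, 77.6 and 79.5 FPKM in WT. The edited lines thus lay above WT in every library, and an edit need not remove the RNA, so this value does not check the labels.

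Of the 9 PRC1 subunit genes, KO1 against WT had 5 rises and 1 fall, and KO2 against WT had 6 rises and 1 fall. BMI1, RNF2, CBX2, CBX6 and PCGF6 rose in both lines, CBX7 fell in both, PHC2 rose in KO2, and CBX8 and PHC1 passed the threshold in neither line. Over all tested genes, 67.5% passed in KO1, with 35.6% rising and 31.9% falling, and 64.7% passed in KO2, with 38.1% rising and 26.6% falling. In KO2 against WT, 4476 genes rose and 3120 fell, a split that was 3801 and 3674 under quantile normalization and 3978 and 3542 after median centring. The number of subunits that passed was therefore close to the background of these lines, and the counts by direction rest on 9 genes. The median log2 fold change of the 9 was 0.33 in KO1, beside 0.02 over all tested genes, and 0.46 in KO2, beside 0.06. The 9 were chosen with earlier results of these data known, so these medians are not those of a neutral list. The 6 further core genes read below had medians of -0.19 in KO1 and -0.07 in KO2, so the upward shift depends on which paralogues are listed. Libraries of the edited line and WT did not overlap for 6 of the 9 genes in KO1 and 7 in KO2, where 68.6% and 69.2% of all tested genes showed no overlap. Both comparisons share the WT libraries. In KO2 against KO1, 0 of the 9 rose and 1 fell, where 18.3% of all tested genes rose and 12.4% fell, and 5 of the 9 had no overlap, beside 47.4% of all tested genes.

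**Figure D1:**
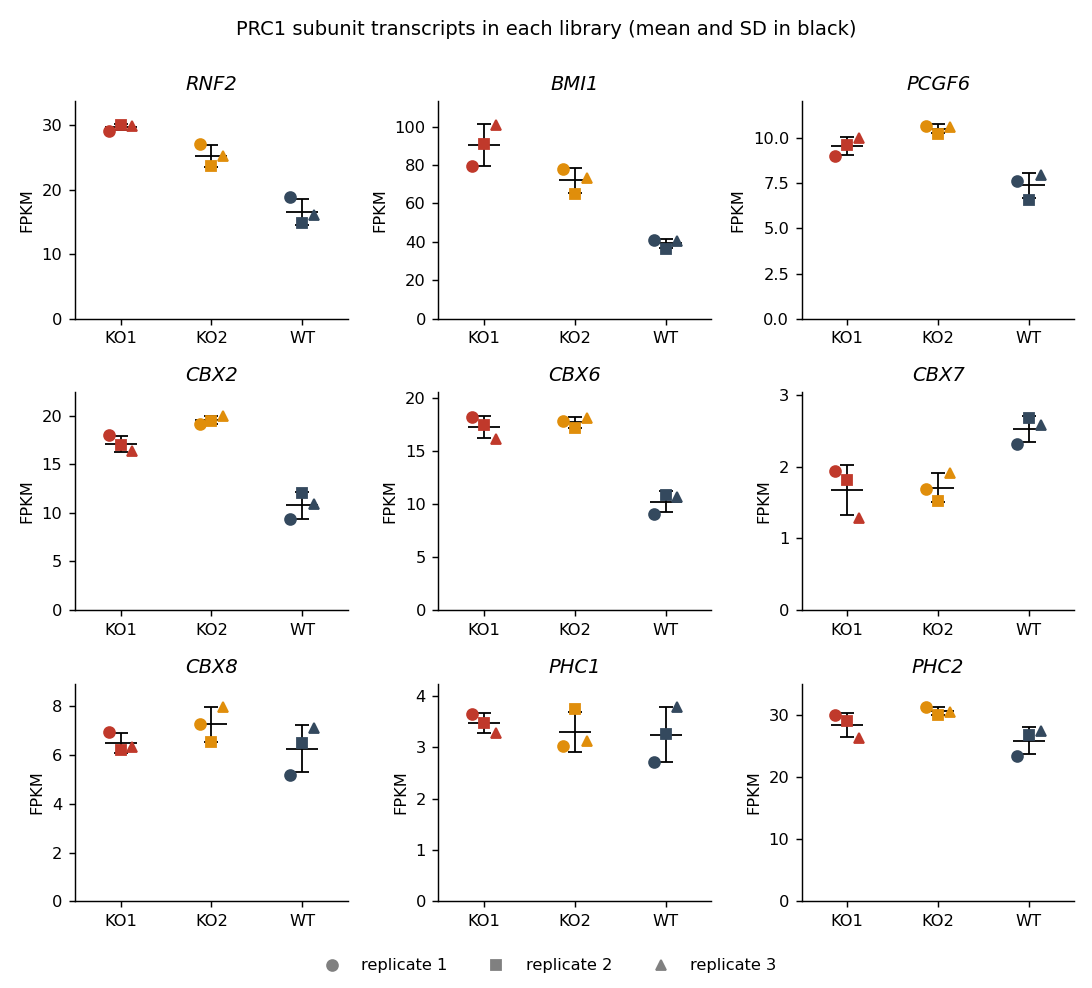
FPKM of the 9 PRC1 subunit genes (y axis of each panel, starting at 0) in KO1, KO2 and WT; each symbol is a library, and the black bars are the mean and SD of 3 libraries. The KO1 and KO2 symbols lie above all WT symbols for RNF2, BMI1, PCGF6, CBX2 and CBX6, below them for CBX7, and overlap them for CBX8 and PHC1.

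Promoter sequences of 7 of the 9 genes, 10 starts in all, were found in RefSeq's annotation of GRCh38.p14, each from 250 bases before to 50 after a start; CBX2 and CBX8 were not matched. The 10 windows held 10 to 65 CG dinucleotides, with a median of 38.5, beside a median of 14 over 35116 promoters. The windows were searched on both strands for CACGTG, the E-box bound by MYC and by the MGA and MAX pair of the PCGF6 complex, and for TTCCCGC, a site of the E2F type, to which the E2F6 of that complex binds. CACGTG was found in 3 of the 10, against 7.26% of all promoters, and TTCCCGC in 1, against 6.55%. Both motifs contain CG, and the windows had a higher median of CG than all promoters, so those percentages are not a like background. The 10 windows also come from only 7 genes, and enrichment was not tested. The motifs do not overlap each other, they were chosen with the results known, and a match is a description of letters only. The windows of the 3 genes that rose most by log2 fold change in KO1 among those matched, BMI1 with both of its starts, RNF2 and CBX6, are shown with that of CBX7, which fell. Capitals mark CACGTG or TTCCCGC, and the sequences read 5′ to 3′ on the gene's strand.
BMI1, upstream start, chr10:22320849-22321148, plus strand: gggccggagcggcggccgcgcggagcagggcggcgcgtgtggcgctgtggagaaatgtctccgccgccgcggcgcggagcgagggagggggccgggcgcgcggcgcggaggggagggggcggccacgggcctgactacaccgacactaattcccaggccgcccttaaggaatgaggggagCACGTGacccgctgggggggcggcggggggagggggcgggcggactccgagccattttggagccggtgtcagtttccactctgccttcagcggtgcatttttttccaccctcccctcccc
BMI1, downstream start, chr10:22321706-22322005, plus strand: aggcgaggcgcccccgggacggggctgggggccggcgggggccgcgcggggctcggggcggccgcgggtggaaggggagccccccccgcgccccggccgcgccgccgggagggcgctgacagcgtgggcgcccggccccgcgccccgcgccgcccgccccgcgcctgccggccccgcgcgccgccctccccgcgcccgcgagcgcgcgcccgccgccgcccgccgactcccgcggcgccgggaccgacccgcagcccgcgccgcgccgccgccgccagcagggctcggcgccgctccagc
RNF2, chr1:185045308-185045607, plus strand: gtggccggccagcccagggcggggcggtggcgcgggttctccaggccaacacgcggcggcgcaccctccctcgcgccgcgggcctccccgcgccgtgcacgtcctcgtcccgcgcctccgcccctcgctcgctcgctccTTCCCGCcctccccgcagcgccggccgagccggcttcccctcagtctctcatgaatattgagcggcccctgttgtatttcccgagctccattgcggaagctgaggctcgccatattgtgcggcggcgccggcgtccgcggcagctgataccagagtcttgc
CBX6, chr22:38872167-38872466, minus strand: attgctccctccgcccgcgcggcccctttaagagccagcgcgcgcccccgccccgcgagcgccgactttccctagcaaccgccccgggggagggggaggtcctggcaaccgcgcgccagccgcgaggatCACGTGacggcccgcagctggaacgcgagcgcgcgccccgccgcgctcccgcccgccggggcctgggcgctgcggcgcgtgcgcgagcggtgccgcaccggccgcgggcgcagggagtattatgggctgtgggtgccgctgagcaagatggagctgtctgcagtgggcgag
CBX7, chr22:39152631-39152930, minus strand: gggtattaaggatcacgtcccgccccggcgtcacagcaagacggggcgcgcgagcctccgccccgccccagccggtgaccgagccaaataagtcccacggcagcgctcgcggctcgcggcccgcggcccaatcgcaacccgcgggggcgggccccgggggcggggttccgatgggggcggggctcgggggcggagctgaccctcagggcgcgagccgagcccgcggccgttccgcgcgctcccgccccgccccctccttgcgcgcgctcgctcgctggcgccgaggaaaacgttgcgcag
The upstream BMI1 window held CACGTG starting 70 bases before the start and the CBX6 window 121 bases before it, and RNF2 held TTCCCGC starting 111 bases before it. The downstream BMI1 window and the CBX7 window held neither. The third CACGTG lay in a PHC2 window, 52 bases before that start.

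The catalytic subunit RNF2, a ubiquitin ligase of PRC1, had 29.1, 30 and 29.8 FPKM in KO1 and 27.0, 23.6 and 25.2 FPKM in KO2, against 18.8, 14.9 and 16.0 FPKM in WT. Every edited library was above the highest WT library. RNF2 rose 1.79-fold in KO1 (log2 fold change 0.81 ± 0.08, limma adjusted p = 5.38e-06) and 1.53-fold in KO2 (0.59 ± 0.08, adjusted p = 7.49e-05). Its paralogue RING1, which can take the same position, rose to 30.4 ± 3.75 FPKM in KO1 and 29.99 ± 1.19 FPKM in KO2, against 23.6 ± 2.31 FPKM in WT (SD, n = 3 each). The log2 fold changes of RING1 were 0.35 ± 0.09 in KO1 (adjusted p = 0.0048) and 0.34 ± 0.09 in KO2 (adjusted p = 0.00632). The summed level of both ligases was 60.0 ± 3.3 FPKM in KO1 and 55.3 ± 2.82 FPKM in KO2, against 40.1 ± 0.868 FPKM in WT.

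BMI1 (PCGF4), the PCGF protein that pairs with RNF2 in canonical PRC1 and raises its ligase activity, had the highest log2 fold change of the 9 in KO1. It had 79.5, 91.0 and 101 FPKM in KO1 and 78.0, 65.0 and 73.2 FPKM in KO2, against 40.9, 36.5 and 40.3 FPKM in WT. The lowest edited library, at 65.0 FPKM, stood well above the highest WT library. BMI1 rose 2.31-fold in KO1 (log2 fold change 1.18 ± 0.09, adjusted p = 8.17e-07) and 1.83-fold in KO2 (0.86 ± 0.09, adjusted p = 1.2e-05), where CBX2 stood within 1 SE of it at 0.81 ± 0.08. By mean level it was above 92.9% of tested genes in KO1 and 90.6% in KO2, against 80.9% in WT. BMI1 was also the only subunit of the 9 to pass between the edited lines, at -0.32 ± 0.09 in KO2 against KO1 (adjusted p = 0.0198), where 30.6% of all tested genes passed. This call was lost without KO1 replicate 2 (adjusted p = 0.0571), KO1 replicate 3 (0.0668) or KO2 replicate 2 (0.0804), and with no filter on low values (0.0503).

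BMI1 shares its locus with COMMD3, an endosomal sorting gene, and the table holds a separate row for the read-through gene COMMD3-BMI1, so the division of reads among the 3 rows is uncertain. COMMD3-BMI1 and COMMD3 were looked at after their values had been seen. COMMD3-BMI1 had 15.7, 16.5 and 8.39 FPKM in KO1 and 9.11, 14.4 and 12.8 FPKM in KO2, against 7.03, 5.89 and 1.98 FPKM in WT. It varied widely between libraries of a group but rose in KO1 (1.35 ± 0.35, adjusted p = 0.0057) and in KO2 (1.23 ± 0.35, adjusted p = 0.0102), with values of 0.91 in KO1 and 0.79 in KO2 without WT replicate 3. COMMD3 stood at 62.4 ± 3.79 FPKM in KO1 and 55.1 ± 3.2 FPKM in KO2, against 57.7 ± 4.16 FPKM in WT, and did not pass in KO1 (0.11 ± 0.06, adjusted p = 0.144, and 0.17, adjusted p = 0.0339, without WT replicate 1) or in KO2 (-0.06 ± 0.06, adjusted p = 0.403). Adding the read-through row to BMI1 gave 95.2, 107 and 109 FPKM in KO1 and 87.1, 79.4 and 85.9 FPKM in KO2, against 48.0, 42.4 and 42.3 FPKM in WT. The groups remained apart, with log2 fold changes of 1.22 in KO1 and 0.91 in KO2, and -0.30 in KO2 against KO1 (adjusted p = 0.00634).

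PCGF6, the PCGF protein of the variant complex that contains MGA and E2F6, had 9.02, 9.597 and 10.0 FPKM in KO1 and 10.7, 10.2 and 10.6 FPKM in KO2, against 7.63, 6.60 and 7.95 FPKM in WT. The groups did not overlap. PCGF6 rose 1.29-fold in KO1 (0.33 ± 0.07, adjusted p = 0.00169) and 1.42-fold in KO2 (0.46 ± 0.07, adjusted p = 0.000201). The other PCGF genes, described in full because they compete for the same position, went in different directions. PCGF2 (MEL18), the closest relative of BMI1, fell to 12.1 ± 1.43 FPKM in KO1 and 12.8 ± 0.402 FPKM in KO2, against 16.4 ± 1.43 FPKM in WT (adjusted p = 0.00158 and 0.00617). PCGF3 fell to 18.5 ± 1.22 FPKM in KO1 and 18.9 ± 0.116 FPKM in KO2, against 21.6 ± 0.358 FPKM in WT (adjusted p = 0.00335 and 0.00973). PCGF5, which like PCGF3 forms a variant complex with AUTS2, rose to 63.3 ± 2.81 FPKM in KO1 and 78.1 ± 1.37 FPKM in KO2, against 54.9 ± 2.34 FPKM in WT (adjusted p = 0.00238 and 4.13e-06). PCGF1, the partner of BCOR and KDM2B, stood at 15.8 ± 2.08 FPKM in KO1 and 18.4 ± 2.22 FPKM in KO2, against 17.7 ± 1.47 FPKM in WT, and passed in neither line (adjusted p = 0.2 and 0.737).

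The CBX genes encode the readers of H3K27me3, and their transcripts moved apart. CBX2, whose protein also compacts nucleosomes, had 18.03, 17.0 and 16.4 FPKM in KO1 and 19.1, 19.5 and 20.0 FPKM in KO2, against 9.35, 12.0 and 10.9 FPKM in WT. All edited libraries were above all WT libraries. CBX2 rose 1.59-fold in KO1 (0.63 ± 0.08, adjusted p = 3.57e-05) and 1.82-fold in KO2 (0.81 ± 0.08, adjusted p = 6.36e-06). CBX6 had 18.2, 17.5 and 16.1 FPKM in KO1 and 17.8, 17.1 and 18.1 FPKM in KO2, against 9.04, 10.8 and 10.7 FPKM in WT. It too was higher in every edited library, and rose 1.69-fold in KO1 (0.71 ± 0.07, adjusted p = 7.8e-06) and 1.74-fold in KO2 (0.74 ± 0.07, adjusted p = 6.75e-06). Without WT replicate 1, the lowest for both genes, the values were 0.54 and 0.72 for CBX2 and 0.63 and 0.67 for CBX6 in KO1 and KO2.

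CBX7, the CBX protein best known for holding stem cells undifferentiated and for repressing the INK4 locus, was the weakest of the 9 and the one that fell. It had 1.94, 1.82 and 1.28 FPKM in KO1 and 1.70, 1.52 and 1.92 FPKM in KO2, against 2.33, 2.69 and 2.59 FPKM in WT. Every edited library lay below the lowest WT library. CBX7 fell by 0.41 ± 0.11 on the log2 scale in KO1 (adjusted p = 0.0067) and by 0.38 ± 0.11 in KO2 (adjusted p = 0.00982), at 0.664 and 0.676 times the WT mean. With a pseudocount of 0.1 the falls were 0.58 and 0.54.

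CBX8, a CBX protein of cell proliferation and leukaemic self-renewal, had 6.96, 6.21 and 6.33 FPKM in KO1 and 7.25, 6.53 and 7.97 FPKM in KO2, against 5.19, 6.50 and 7.09 FPKM in WT. The groups overlapped. Its log2 fold change was 0.05 in KO1 (95% interval -0.17 to 0.28, adjusted p = 0.658) and 0.19 in KO2 (-0.04 to 0.42, adjusted p = 0.127), so changes within those intervals could not be told apart from none. It passed in KO2 without WT replicate 3 (0.27, adjusted p = 0.0455). Without WT replicate 1 its value was -0.056 in KO1 and 0.08 in KO2 (adjusted p = 0.585 and 0.448).

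Of the Polyhomeotic genes, PHC2 had 29.9, 29.1 and 26.2 FPKM in KO1 and 31.3, 30.1 and 30.5 FPKM in KO2, against 23.3, 26.8 and 27.5 FPKM in WT. KO1 overlapped WT and KO2 did not. PHC2 rose in KO2 (0.24 ± 0.07, adjusted p = 0.00965) and had a log2 fold change of 0.13 in KO1 (95% interval -0.02 to 0.28, adjusted p = 0.105), which passed without KO1 replicate 3 (0.19, adjusted p = 0.0334) and was 0.06 without WT replicate 1 (adjusted p = 0.362). The difference between the edited lines, 0.11 ± 0.07, did not pass (adjusted p = 0.257). PHC1 had 3.66, 3.48 and 3.28 FPKM in KO1 and 3.03, 3.75 and 3.13 FPKM in KO2, against 2.71, 3.26 and 3.79 FPKM in WT. Its 3 groups overlapped, with log2 fold changes of 0.08 in KO1 (95% interval -0.15 to 0.31) and 0.02 in KO2 (-0.21 to 0.25), whose sign changed under quantile normalization (-0.0092 and -0.085) and without WT replicate 1 (-0.014 and -0.074). PHC3, the remaining paralogue, fell to 7.85 ± 0.272 FPKM in KO1 and 8.398 ± 0.17 FPKM in KO2, against 11.1 ± 0.477 FPKM in WT (adjusted p = 3.36e-05 and 0.00019).

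**Figure D2:**
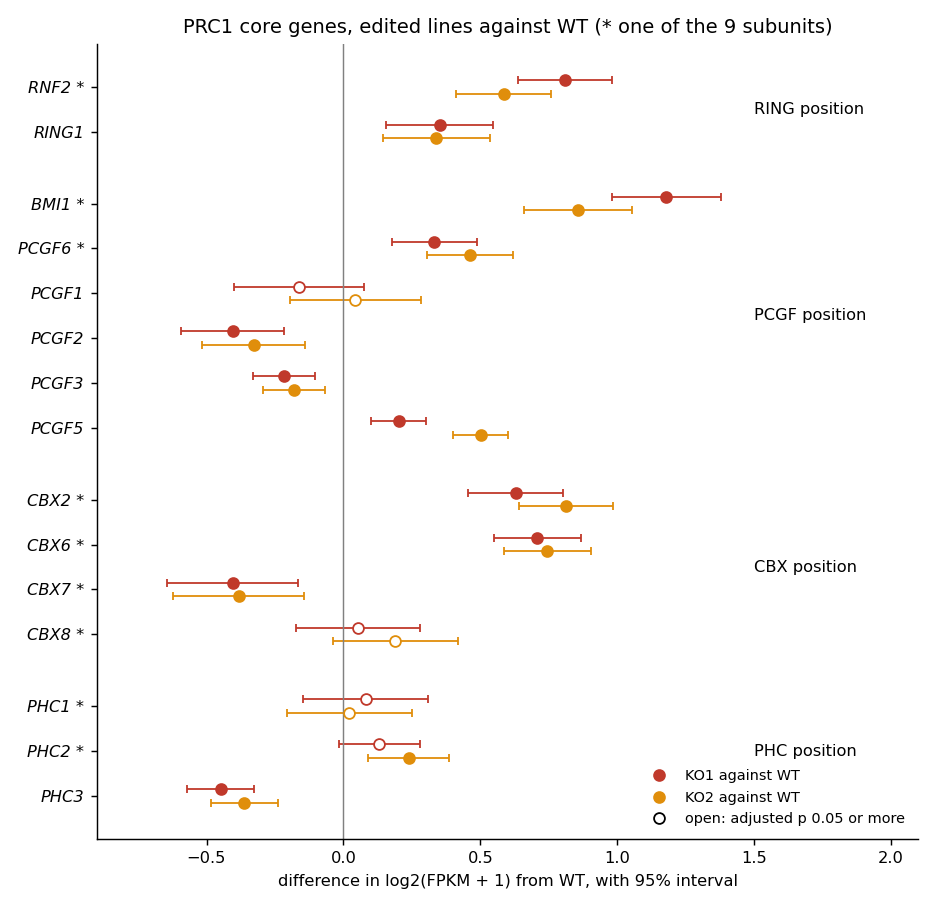
Difference in mean log2(FPKM + 1) from WT (x axis) for 15 PRC1 core genes (y axis, grouped by their position in the complex), KO1 above KO2 in each row, with 95% intervals; filled points passed an adjusted p of 0.05. BMI1 lies farthest right at 1.18 in KO1 and 0.86 in KO2, and CBX7, PCGF2, PCGF3 and PHC3 lie left of 0 in both lines.

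Besides the 9, 6 further core genes were read, with 2 rises (RING1 and PCGF5), 3 falls (PCGF2, PCGF3 and PHC3) and 1 that did not pass (PCGF1), with the same genes in KO1 and in KO2. Over these 15 core genes there were 7 rises and 4 falls in KO1, and 8 rises and 4 falls in KO2. These calls made up 73.3% of the 15 in KO1 and 80.0% in KO2, beside 67.5% and 64.7% of all tested genes. Both RING genes rose in both lines. At the PCGF and CBX positions, and at the PHC position in KO2, the rises were not shared by every gene read.

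Since paralogues are alternatives at 1 position in the complex, each gene's share of the summed FPKM of the genes read for its position was computed per library. Such a share is of transcripts and not of protein or assembled complex. The shares at a position have a fixed total, so a gene's share can move when only the other genes change. In the PCGF position, BMI1 made up 43.1% ± 2.48 of the sum in KO1 and 34.1% ± 1.87 in KO2, against 25.0% ± 1.52 in WT (SD, n = 3 each). All 3 groups were apart from each other in that share. PCGF5 held 30.2% ± 1.26 in KO1 and 37.1% ± 1.0 in KO2, against 34.9% ± 1.46 in WT, so BMI1 was the most abundant PCGF transcript in KO1 and PCGF5 in WT, whereas in KO2 their FPKM overlapped. With the read-through row added, BMI1 lay above PCGF5 in every KO2 library, at 79.4 FPKM or more, against at most 78.9 FPKM for PCGF5. PCGF6 held 4.556% in KO1 and 4.999% in KO2, against 4.703% in WT, with overlap between each edited line and WT. The summed PCGF level was 210 ± 13.1 FPKM in KO1 and 211 ± 8.15 FPKM in KO2, against 157 ± 0.223 FPKM in WT.

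Of the summed FPKM of CBX2, CBX6, CBX7 and CBX8, CBX2 held 40.3% ± 0.507 in KO1 and 42.4% ± 1.119 in KO2, against 36.2% ± 1.26 in WT. CBX6 held 40.5% ± 0.512 in KO1 and 38.3% ± 0.587 in KO2, against 34.3% ± 0.555 in WT. CBX7 made up 3.93% ± 0.631 in KO1 and 3.70% ± 0.301 in KO2, against 8.54% ± 0.383 in WT, and CBX8 made up 15.3% ± 0.605 in KO1 and 15.7% ± 1.0 in KO2, against 21.0% ± 1.45 in WT. For each of these 4 genes the shares in both edited lines were apart from those in WT. The FPKM of CBX8 itself overlapped WT in both lines. Their summed level was 42.6 ± 2.55 FPKM in KO1 and 46.2 ± 1.68 FPKM in KO2, against 29.7 ± 3.35 FPKM in WT.

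In the PHC position, PHC2 held 71.5% ± 1.59 in KO1 and 72.4% ± 0.998 in KO2, against 64.3% ± 1.4 in WT, with no overlap, and PHC1 held 8.74% ± 0.114 in KO1 and 7.80% ± 0.969 in KO2, against 8.05% ± 0.762 in WT, with overlap. In FPKM, PHC2 overlapped WT in KO1. The summed PHC level was 39.7 ± 1.85 FPKM in KO1 and 42.3 ± 0.301 FPKM in KO2, against 40.2 ± 2.96 FPKM in WT. RNF2 held 49.5% ± 3.39 of the RING position in KO1 and 45.7% ± 0.884 in KO2, against 41.3% ± 5.32 in WT. WT replicate 1 stood at 47.4% and overlapped both edited lines, and the WT mean without it was 38.3%. Exact two-sided permutation tests of 3 libraries against 3 cannot give a p below 0.1, and 33 of the 57 share and sum comparisons reached that value, with a smallest adjusted p of 0.173.

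**Figure D3:**
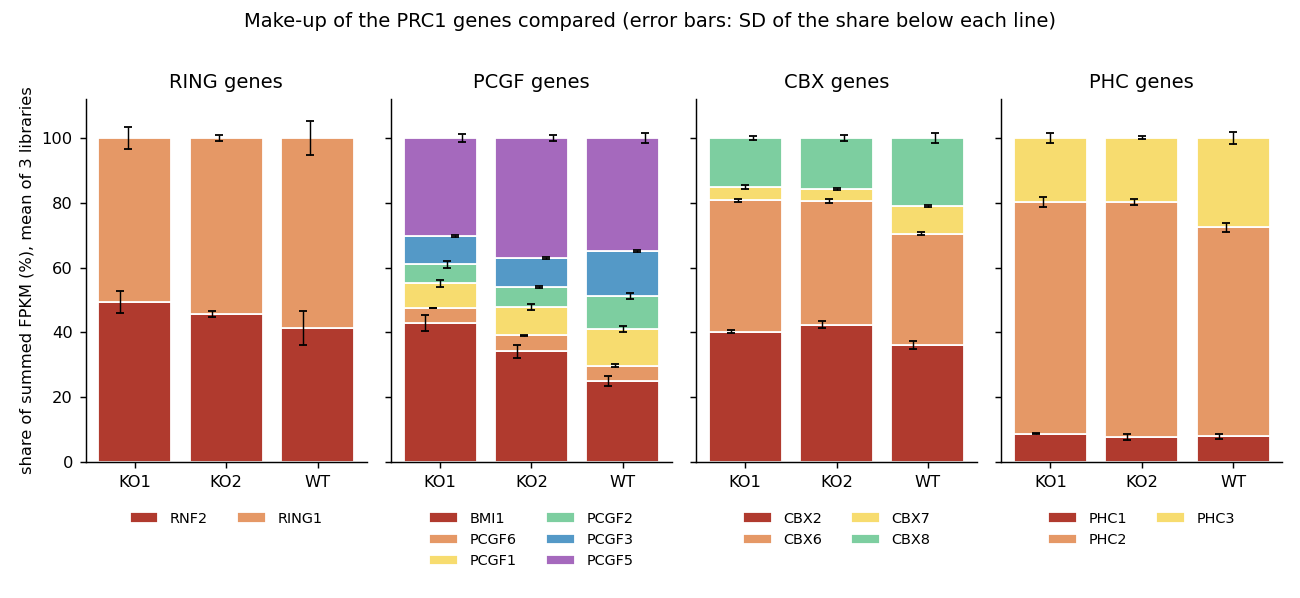
Share of each gene (y axis, percent of the summed FPKM of the genes in the panel, stacked to 100) for 4 groups of PRC1 genes in KO1, KO2 and WT; bars are means of 3 libraries and error bars the SD of the share ending at that line. The BMI1 block takes 43.1% in KO1, 34.1% in KO2 and 25.0% in WT.

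In the order of FPKM levels among the 15 core genes, BMI1 was first in KO1, above PCGF5 with no overlap, and second to PCGF5 in WT, also with no overlap. RNF2 had rank 4 in KO1 and rank 5 in KO2, against rank 7 in WT. Its libraries overlapped those of RING1 and PHC2, the genes next to it, in KO1, and those of PCGF1 and PCGF2 in WT. CBX6 and CBX2 were neighbours in KO1 and in WT with overlapping libraries. CBX8, PHC1 and CBX7 were the 3 lowest genes in every group, in that order.

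CBX2 and CBX8 lie side by side in the genome, so 5 tested genes around them were read as well. Gene order, without positions, was taken from RefSeq on GRCh38.p14. Of these 5 genes and CBX8, none passed as a rise in KO1, where 35.6% of all tested genes did. TBC1D16 passed as a rise in KO1 without WT replicate 2 (0.42, adjusted p = 0.00221). The nearest tested gene on the side of CBX2, ENGASE, a glycosidase, had log2 fold changes of -0.12 ± 0.07 in KO1 (adjusted p = 0.146) and -0.06 ± 0.07 in KO2 (adjusted p = 0.488). CANT1, a nucleotidase, fell in both lines (-0.39 ± 0.05 and -0.24 ± 0.05, adjusted p = 5.2e-05 and 0.0018), as did LGALS3BP, a secreted galectin-binding glycoprotein (-2.32 ± 0.08 and -0.37 ± 0.08, adjusted p = 3.57e-09 and 0.00271). On the side of CBX8, the Rab GTPase regulator TBC1D16 stood at 0.27 ± 0.12 in KO1 (adjusted p = 0.0677) and 0.31 ± 0.12 in KO2 (adjusted p = 0.0422), a call lost in 12 of 16 alternatives. GAA, the lysosomal glucosidase, fell in KO1 (-0.38 ± 0.10, adjusted p = 0.00611) and not in KO2 (0.07 ± 0.10, adjusted p = 0.554).

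**Figure D4:**
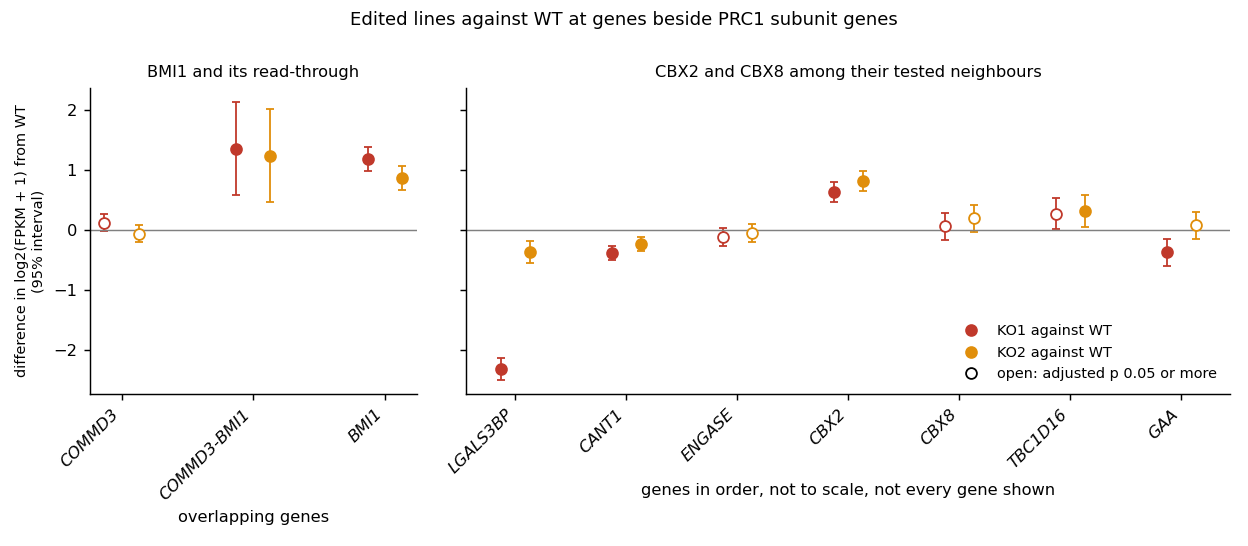
Difference in mean log2(FPKM + 1) from WT (y axis, with 95% intervals) for BMI1 and the genes that share its locus, and for CBX2 and CBX8 among 5 tested genes near them, in their order along the chromosome, KO1 left of KO2. Filled points passed an adjusted p of 0.05. BMI1 and its read-through lie above 0 while COMMD3 lies near it, and CBX2 stands above CBX8 beside it.

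For each subunit that passed in both lines, the tested genes with a mean of at least 5 FPKM whose log2(FPKM + 1) ran most like it over the 9 libraries were found among 8725 genes. The libraries form 3 groups, so these correlations mostly follow the group means and are given as a description. BMI1 ran most like LRP6 and CPSF6, both at r = 0.993. RNF2 ran most like RDX and PRKCQ-AS1, both at r = 0.994. CBX2 ran most like RANBP1 (r = 0.997) and EIF5A (r = 0.992), and CBX6 like SMO (r = 0.997) and FARSA (r = 0.996). PCGF6 ran most like DDX55 and GFM1, both at r = 0.991, and CBX7 like COX14 (r = 0.983) and MXD3 (r = 0.96). COX14 stood at 15.8 FPKM in KO1 and 16.1 FPKM in KO2, against 21.5 FPKM in WT. MXD3, with the lowest r of the genes named here, stood at 3.90 FPKM in KO1 and 4.78 FPKM in KO2, against 9.57 FPKM in WT.

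Genes that work with PRC1 or against it were read from lists. Of 3 accessory genes of canonical PRC1, SCMH1 rose in both lines, to 33.4 ± 0.822 FPKM in KO1 and 36.0 ± 1.88 FPKM in KO2, against 26.7 ± 0.648 FPKM in WT (adjusted p = 0.000155 and 2.3e-05). SCML1 fell in KO1, to 3.26 ± 0.402 FPKM (adjusted p = 0.00331), and stood at 5.49 ± 0.826 FPKM in KO2, against 4.92 ± 0.563 FPKM in WT (adjusted p = 0.327 for KO2). SCML2 rose in KO2, to 19.2 ± 0.641 FPKM, against 16.0 ± 1.38 FPKM in WT (adjusted p = 0.0113), and had 16.6 ± 1.32 FPKM in KO1 (adjusted p = 0.565). The calls made up 66.7% of these 3 genes in each line, close to the 67.5% of all tested genes in KO1 and 64.7% in KO2.

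Of 23 accessory genes of variant PRC1, 9 passed upwards and 8 downwards in KO1 (log2 fold changes from -0.65 to 1.42), and 10 upwards and 7 downwards in KO2 (from -0.54 to 1.23). Those that passed were 73.9% of the list in each line, beside 67.5% of all tested genes in KO1 and 64.7% in KO2. The median of the list was -0.04 in KO1 and 0.12 in KO2. AUTS2, which brings a coactivator to the PCGF3 and PCGF5 complexes, changed most, to 14.1 ± 0.541 FPKM in KO1 and 12.3 ± 0.133 FPKM in KO2, against 4.66 ± 0.394 FPKM in WT (log2 fold changes 1.42 ± 0.06 and 1.23 ± 0.06, adjusted p = 1.44e-08 and 6.23e-08). E2F6, the DNA-binding repressor of the PCGF6 complex, rose to 9.53 ± 0.28 FPKM in KO1 and 9.68 ± 0.184 FPKM in KO2, against 5.35 ± 0.268 FPKM in WT (0.73 ± 0.06 and 0.75 ± 0.06). Its dimer partner TFDP1 rose to 121 ± 1.41 FPKM in KO1 and 121 ± 3.43 FPKM in KO2, against 83.5 ± 2.4 FPKM in WT. USP7, a deubiquitinase that joins the PCGF1 complex, fell to 110 ± 1.72 FPKM in KO1 and 119.6 ± 0.721 FPKM in KO2, against 151 ± 3.41 FPKM in WT.

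Of 12 tested genes that remove the H2A ubiquitin or form the BAP1 complex that does so, KO1 had 1 rise and 3 falls, and KO2 had 3 rises and 4 falls, or 33.3% and 58.3% of the list, beside 67.5% and 64.7% of all tested genes. The rises in KO2 numbered 1 under quantile normalization, under median centring, without WT replicate 1 and without KO2 replicate 2. OGT, the glycosyltransferase of the BAP1 complex, fell to 42.3 ± 0.8 FPKM in KO1 and 48.8 ± 0.254 FPKM in KO2, against 64.9 ± 1.43 FPKM in WT (-0.61 ± 0.04 and -0.41 ± 0.04, adjusted p = 1.19e-07 and 3.34e-06). ASXL2, the cofactor of BAP1, fell to 11.9 ± 0.607 FPKM in KO1 and 14.1 ± 0.0533 FPKM in KO2, against 16.7 ± 0.457 FPKM in WT. MBD5 fell in KO2, to 3.18 ± 0.133 FPKM, against 5.21 ± 0.132 FPKM in WT (adjusted p = 4.39e-05), and had 4.597 ± 0.41 FPKM in KO1 (adjusted p = 0.078), where it passed under quantile normalization (-0.21, adjusted p = 0.0199) and without KO1 replicate 1 (-0.21, adjusted p = 0.0273). USP16, an H2A deubiquitinase active in mitosis, rose to 31.9 ± 2.06 FPKM in KO1 and 34.1 ± 2.23 FPKM in KO2, against 24.6 ± 1.23 FPKM in WT. The INK4 genes CDKN2A and CDKN2B, classical targets of BMI1 and CBX7, were listed at 0 in all 9 libraries, so their response could not be read. Why they were absent, in WT as in the edited lines, was not tested.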

How the data were processed

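RNA from exponentially growing Jurkat cells was made into mRNA libraries, per the labels' protocols. The authors deposited 1 table of FPKM values with a column for each of the 9 libraries. The submitters' processing notes list the build hg19 and, without their roles, bedtools 2.7.0, Cufflinks 2.2.1 and STAR 2.5.0b. Annotation and strandedness: not given in the sources used here, so overlapping, antisense and near-identical genes are uncertain. Of 26228 rows, 38 held text and were left out. Groups came from the titles. A gene was tested, if it reached 1 FPKM in 3 libraries, with limma 3.58.1 (R 4.3.3) on log2(FPKM + 1), with 1 mean per group, all 9 libraries, a mean-variance trend and Benjamini-Hochberg adjustment. No count test was used. The fit was tested on simulated normal values with few genes changed, and those in KO1 only. Most genes passed against WT in the real data, so that test does not check the error rate of these calls. Position shares used exact permutation tests (scipy 1.17.1). Depth is unknown, so no counting interval is given. Partner genes named were up to 4 per list, by smallest adjusted p; core genes were all named, save 1 gene that is not reported here; likeness and neighbour rules are as stated with them. The subunits and lists were chosen with earlier results of these data known. Alternatives were other filters (none, or 5 FPKM), quantile normalization, median centring, a pseudocount of 0.1 or 0.5, fits of only the groups compared, a replicate block and leaving out each library; adding the read-through row to BMI1 was chosen after seeing the data.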

Additional observations from a re-analysis of the deposited data

Results flagged for a closer look

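For 12 named genes the direct test of KO2 against KO1 passed, as it did for 30.6% of tested genes. Partner genes were named by their adjusted p against WT, so the named genes are not a neutral set for this comparison, and their number is not a result about them. Over whole lists, those that passed were 13.3% of the 15 core genes and 33.3% of the canonical accessory genes. They were 26.1% of the variant accessory genes and 33.3% of the genes for H2A deubiquitination. The calls of AUTS2 and CANT1 were lost in 9 of 17 alternatives each, that of USP7 in 5 and that of BMI1 in 4. Among core genes, those that passed were BMI1 at -0.32 and PCGF5 at 0.30, and EZH2 stood at -0.24. Among partner genes, SCML1 stood at 0.60, AUTS2 at -0.19, USP7 at 0.12, OGT at 0.20, ASXL2 at 0.23 and MBD5 at -0.42. Among the neighbours of CBX2, LGALS3BP stood at 1.96, GAA at 0.45 and CANT1 at 0.15. The adjusted p over the alternatives ran from 0.0146 to 0.123 for AUTS2, from 0.0345 to 0.142 for CANT1 and from 0.0122 to 0.102 for USP7. The BMI1 value had an adjusted p of 0.0198, against 0.0057 to 0.0804 over its 17 alternatives. Of the other 8 subunits, RNF2 stood at -0.22 (adjusted p = 0.0516) and passed in 8 of 17 alternatives, and CBX2 stood at 0.18 (adjusted p = 0.0995) and passed in 2. Groups of 3 libraries are too small for a test of single outlying samples.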

How the results depend on the processing

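The 5 rises shared by both lines passed in all 17 alternatives, and the fall of CBX7 in the 16 that tested it, in KO1 and in KO2; a filter at 5 FPKM removed CBX7 and PHC1. The replicate numbers of the titles did not pair the libraries throughout (correlations of same-numbered deviations from -0.287 to 0.318, and 3 of 9 over 0.1). Of the 9 best correlations, 4 fell on the same number. Between KO2 and WT each library was most like its own number (0.318, 0.033 and 0.232), which did not hold between KO1 and WT or between KO2 and KO1. With the numbers as a replicate block, 7694 genes passed in KO1, 7339 in KO2 and 3135 in KO2 against KO1. Without the block 7923, 7596 and 3596 passed.

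Between the edited lines, the number of subunits called was 1, against 0 with no filter, 2 at 5 FPKM, 2 under quantile normalization, 2 under median centring, 2 with the replicate block, 3 with only those lines fitted and 0 to 3 when a library was left out. Genes higher in KO2 than in KO1 numbered 2146, against 1450 lower, but 1783 and 1854 under quantile normalization and 1654 and 1799 after median centring. Adding the read-through row moved the share of BMI1 to 46.6% in KO1, 37.7% in KO2 and 27.3% in WT, and that of PCGF6 to 4.28% in KO1 and 4.73% in KO2. Quantile normalization moved the share of CBX7 in WT to 8.94% and that of PHC1 in KO1 to 8.45%.

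Small log2 fold changes changed sign, and the cause was not tested. Under quantile normalization PHC1 was at -0.0092 in KO1 and -0.085 in KO2, and under median centring PHC1 in KO2 was at -0.024, PCGF1 in KO2 at -0.000289 and CBX7 in KO2 against KO1 at -0.012. Leaving out libraries gave ranges of -0.056 to 0.14 for CBX8, -0.014 to 0.17 for PHC1 and -0.019 to 0.094 for SCML2 in KO1. In KO2 they were -0.074 to 0.11 for PHC1 and -0.0195 to 0.14 for PCGF1, and in KO2 against KO1 -0.012 to 0.073 for CBX6 and -0.0898 to 0.094 for CBX7. Without counts, precision at low levels, as for CBX7 and PHC1, cannot be set from depth.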
